A study of Mus musculus with 8 samples.

Results

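The respiratory chain genes of this series were the 94 features whose symbols name a structural subunit of complex I (Ndufa, Ndufb, Ndufc, Ndufs and Ndufv), complex III (Uqcr), complex IV (Cox4i, Cox5, Cox6, Cox7 and Cox8) or ATP synthase, here called complex V (Atp5), with the mitochondrial genes mt-Nd, mt-Co, mt-Cytb and mt-Atp. They were chosen by symbol alone, leaving out assembly factors (Ndufaf) and pseudogenes, from 32286 gene features. The nucleus encodes 81 of them (38 of complex I, 8 of complex III, 18 of complex IV and 17 of complex V), and the mitochondrial genome encodes 13 (7, 1, 3 and 2). Their UMIs, the counted RNA molecules, were summed over the cells of each cell class in each library. Nuclear members are given as CPM (UMIs scaled to the total of nuclear-gene UMIs), and the mitochondrial members as a percentage of all gene UMIs.

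The cells came from lung adenocarcinomas of KPC mice, whose tumours were started by lentiviral particles given through the trachea. All tumours carried CRISPR activation restricted to tumour cells, in which a dead guide RNA recruits an activator and does not cut. The guides were aimed at Tomato in the control group (Con) and at Malat1, a nuclear long noncoding RNA, in the other group (mA1), from tumour initiation on. At 16 weeks the largest tumours were dissected, 4 per group, dissociated with collagenase IV and DNase and freed of dead cells. Hashtag antibodies (CD45 and MHC class I) marked the tumours that shared a library, and each group had 2 libraries of the 10x 3′ kind. The labels do not say whether tumours came from separate mice, so the spread between libraries may be partly technical.

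The respiratory chain passes electrons from NADH through complex I, coenzyme Q, complex III, cytochrome c and complex IV to oxygen, and complex V makes ATP from the proton gradient that results. Most subunits are made from nuclear genes and imported. The core subunits mt-Nd, mt-Cytb, mt-Co and mt-Atp are transcribed from the circular mitochondrial genome as long precursors that are cut into single RNAs, so both genomes must supply parts of complexes I, III, IV and V. Alveolar macrophages, which take up surfactant lipid, are known for oxidative metabolism, and mature neutrophils are known for few mitochondria and reliance on glycolysis.

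Of 31084 barcodes 23774 cells were kept, with 48319272 to 74996867 gene UMIs per library. Clusters were named from marker sets, and 20 classes with at least 20 cells in every library (21901 cells, 92.1% of those kept) were compared. Respiratory chain members took no part in the clustering. In every tumour-like epithelial sub-cluster all markers of its closest set were detected, and sub-clusters 7.3 and 7.4 were led by the alveolar type 1 genes Ager and Clic5. Genes of other cell types were also among the leading genes of some sub-clusters against the other epithelial ones. These were the macrophage genes Chil3, Ear2 and Car4 in 7.7 (33 cells) and Igkc, Jchain and Igha in 7.6 (43 cells). In 7.3 (161 cells) they were the neutrophil genes S100a9 and S100a8. The source of this RNA was not tested. Con library 2 alone carried Xist (1226 CPM against at most 0.866 in the others). The Y-linked gene Ddx3y stood at 0 CPM there and at 40.8 to 60.0 in the others. Con library 2 thus had the sex markers of female cells and the other libraries, with both mA1 libraries, those of male cells. Sex cannot be told apart from other traits of that library in the comparisons of Con with mA1. Malat1 took 4.03% and 2.60% of all gene UMIs in the epithelial cells of Con and 2.70% and 4.29% of mA1 libraries, a log2 difference of 0.07 ± 0.32 (SE; edgeR quasi-likelihood test, adjusted p = 0.967). That difference was -0.18 without Con library 2 and -0.36 without mA1 library 2, so in these cells the targeted gene did not tell the groups apart, and Con and mA1 stand below for the labels. Pairs of libraries shared 108 to 330 barcodes.

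Macrophages of the alveolar lineage held the highest summed level of nuclear-encoded members, and Retnlg-led neutrophil-like cells the lowest, 3.02-fold apart. Proliferating alveolar macrophage-like cells stood at 28728 ± 498 CPM (SD, n = 4 libraries), macrophage cluster 6 (led by Ccl17 and Mmp12) at 28598 ± 812 and alveolar macrophage-like cells at 27971 ± 1067. These 3 classes overlapped between libraries and all lay above the Inhba-led alveolar macrophage-like cells, at 25137 ± 893, in every library. The Inhba-led class in turn lay above all the rest. Tumour-like epithelial cells held 21883 and 22632 CPM in Con and 23042 and 22444 in mA1 libraries. Their mean of 22500 ± 482 sat in a run of classes in which each overlapped the next, from cDC1-like cells (23311 ± 472) through C1q macrophage-like (23020 ± 244), NK-like (22823 ± 806) and cDC2-like cells (22274 ± 402) to monocyte-like cells (21794 ± 773). Alveolar macrophage-like cells exceeded epithelial cells 1.24-fold, in 4 of 4 libraries. Gamma-delta T-like (21416 ± 731), CD4 T-like (20247 ± 294), mature DC-like (19985 ± 1170), Ccl5-led CD8 T-like (19362 ± 310) and Ccrl2-led neutrophil-like cells (18576 ± 1017) followed, each overlapping the next. A gap without overlap separated them from Lef1-led CD8 T-like (15113 ± 286), B cell-like (14760 ± 246), Lef1-led T-like (14509 ± 404) and plasma cell-like cells (13144 ± 1784). Retnlg-led neutrophil-like cells came last, with 10130.3 and 8764 CPM in Con and 10022 and 9146 in mA1 libraries. Since the classes were cut from the same cells, their order is a description and carries no p-value.

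**Figure D1:**
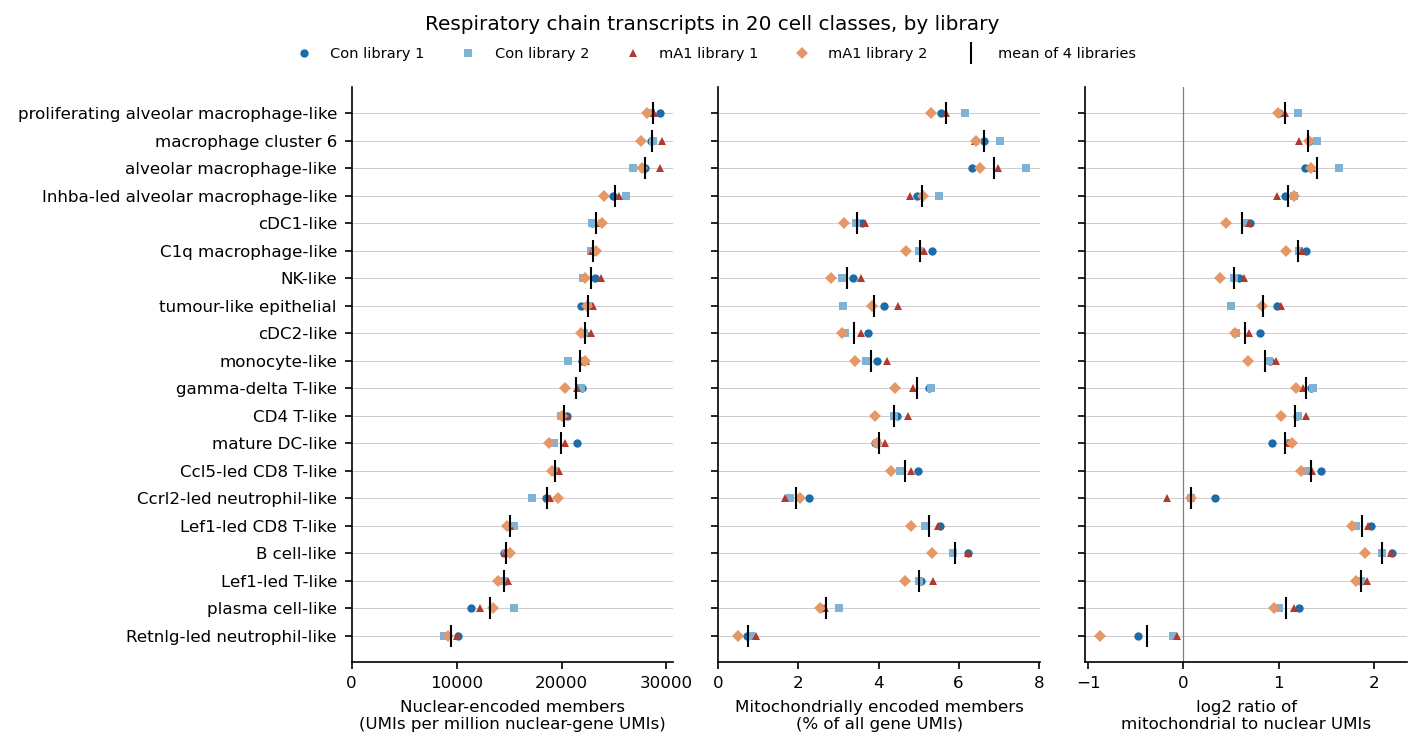
Summed nuclear-encoded members (CPM of nuclear-gene UMIs), summed mitochondrially encoded members (% of all gene UMIs) and the log2 ratio of their UMIs in 20 cell classes, ordered by the nuclear level. Points are the 4 libraries and bars their mean: the nuclear level falls from 28728 in proliferating alveolar macrophage-like cells to 9515 in Retnlg-led neutrophil-like cells, while the ratio is highest in B cell-like cells (2.09).

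The place of several lymphocyte classes changed with the denominator, that of B cell-like cells hardly. Genes for cytoplasmic ribosomal proteins took 48.4% of nuclear-gene UMIs in Lef1-led CD8 T-like cells and 46.7% in Lef1-led T-like cells, but 19.2% in alveolar macrophage-like cells and 5.38% in Retnlg-led neutrophil-like cells. Immunoglobulin genes took 54.0% in plasma cell-like cells (45.5% to 60.8% between libraries). With both gene sets out of the denominator, plasma cell-like cells moved from rank 19 to rank 1, at 40285 ± 1048 CPM, above the alveolar macrophage-like cells at 34637 ± 1562. Lef1-led CD8 T-like cells rose to 29354 ± 879 CPM, close to the epithelial level of 29474 ± 599. Lef1-led T-like cells reached 27284 ± 1031 CPM, so that their gap to alveolar macrophage-like cells shrank from 1.93-fold to 1.27-fold. B cell-like cells, at rank 17 before, stood at rank 18 with 23766 ± 891 CPM. Ccrl2-led neutrophil-like cells went from rank 15 to rank 19 (21003 ± 1511 CPM), and Retnlg-led neutrophil-like cells were last on both scales (10067 ± 741 CPM).

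**Figure D2:**
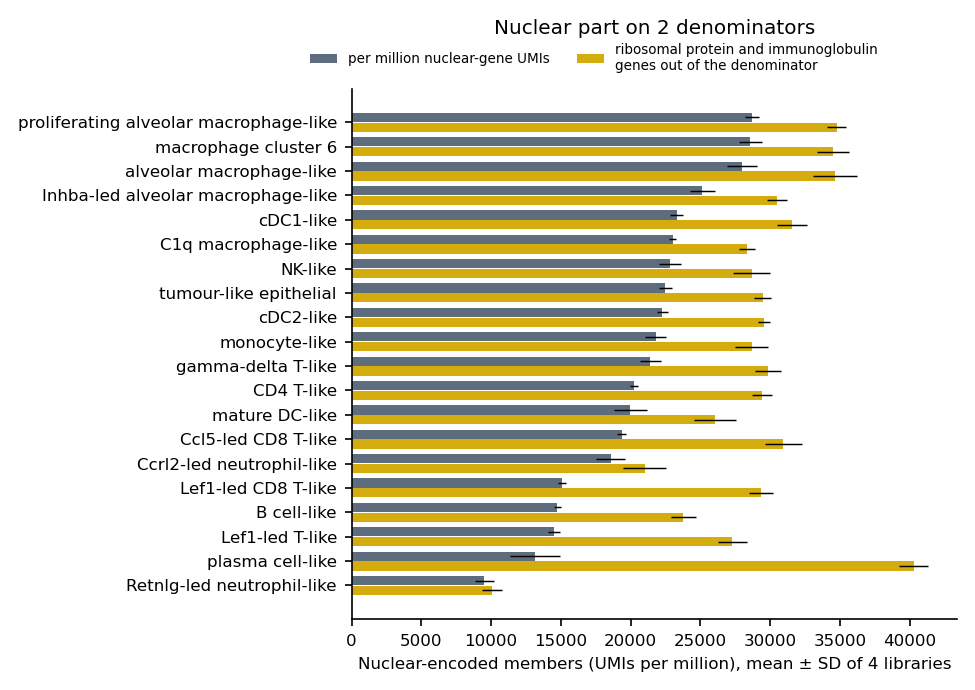
Summed nuclear-encoded members by class, mean ± SD of 4 libraries in CPM, with all nuclear genes in the denominator (grey) or with ribosomal protein and immunoglobulin genes left out of it (yellow). Plasma cell-like cells move from 13144 to 40285 and Retnlg-led neutrophil-like cells only from 9515 to 10067.

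Related classes showed which differences survived both scales. Ccrl2-led neutrophil-like cells exceeded Retnlg-led ones 1.95-fold, a log2 difference of 0.97 ± 0.10 (SD over 4 libraries), and by 1.06 ± 0.11 with ribosomal protein and immunoglobulin genes left out, in 4 of 4 libraries on both scales. Their median depth was low in both cases, at 2056 and 1479 UMIs per cell. CD4 T-like cells, led by Icos and Tnfrsf4, exceeded Lef1-led T-like cells, led by the resting T cell genes Lef1 and Tcf7, by 0.48 ± 0.03 on the first scale and by 0.11 ± 0.02 on the second. Ccl5-led CD8 T-like cells, led by Ccl5 and Nkg7, exceeded Lef1-led CD8 T-like cells by 0.36 ± 0.03 and 0.08 ± 0.03. In these T cell pairs the sign held in 4 of 4 libraries, and most of the first difference went with the ribosomal protein share. NK-like cells lay above Ccl5-led CD8 T-like cells by 0.24 ± 0.04 on the first scale and below them on the second (-0.11 ± 0.03). Plasma cell-like against B cell-like cells likewise changed from -0.18 ± 0.18 to 0.76 ± 0.05.

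Members rose and fell together across classes on the first scale, with all nuclear genes in the denominator. All members share that denominator, in which ribosomal protein genes took 5.38% to 48.4% by class. Its part in the common pattern was not tested. Single members, here and below, were not put on the second scale. Immunoglobulin genes took 54.0% in plasma cell-like cells, so the places of that class are given for the first scale only. Of the 81 nuclear members, 74 reached 50 CPM in some class and 7 did not, among them Cox7b2, Cox8b and Cox8c, for which no UMI fell in the 20 classes. Of the 74, 55 were lowest in Retnlg-led neutrophil-like cells and 48 were highest in a macrophage class (31 in the proliferating one), while 7 were highest in epithelial cells. For 62 of the 74, Pearson's r of the log2 level with the sum of the other nuclear members was above 0.7 over the 20 classes, which share 4 libraries. This r is given on the first scale only, with the neutrophil classes included. The classes' median depth was itself related to the nuclear level (r = 0.595, Spearman 0.602 over 20 classes), and its part in the pattern was not tested. Within complex I, Ndufa13, a subunit also known as GRIM-19, had the highest nuclear mean over classes (368 CPM), and ran from 209 ± 33 CPM in Retnlg-led neutrophil-like cells to 497 ± 17 in NK-like cells. The widest range in complex I was that of Ndufa5, an accessory subunit of the matrix arm, from 8.31 ± 4.86 CPM in Retnlg-led neutrophil-like cells to 214 ± 13 in proliferating alveolar macrophage-like cells. In complex III, Uqcrb, which binds ubiquinone, ran from 31.3 ± 19.7 CPM in Retnlg-led neutrophil-like cells to 566 ± 27 in macrophage cluster 6. In complex IV, Cox4i1, the ubiquitous subunit 4, ran from 479 ± 77 CPM in Retnlg-led neutrophil-like cells to 1539 ± 103 in macrophage cluster 6. Chosen after its values were seen, Cox5a, the matrix subunit that binds Cox4, ran from 130 ± 11 CPM in Retnlg-led neutrophil-like to 997 ± 42 in proliferating alveolar macrophage-like cells. In complex V, Atp5e, a subunit of the central stalk, ran from 530 ± 82 CPM in plasma cell-like cells to 1275 ± 97 in macrophage cluster 6.

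**Figure D3:**
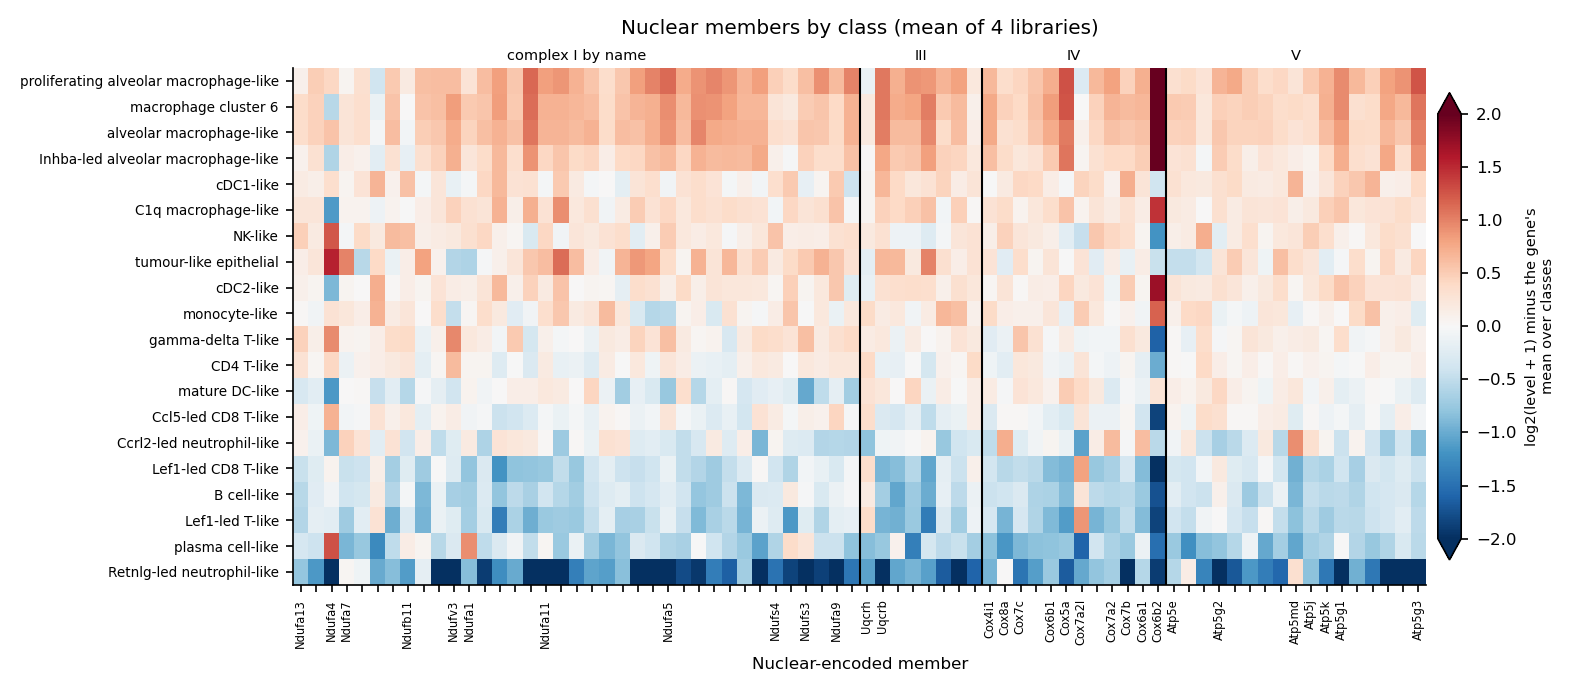
The 74 nuclear members that reach 50 CPM in some class (columns, by complex and then by mean level, with members named in the text labelled) in 20 classes (rows, by summed level). Colour is log2(level + 1) minus the gene's mean over the classes, clipped at ±2; most columns change together, with Ndufa4 and Cox7a2l running against their neighbours.

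Subunit c of complex V forms the rotor ring and comes from 3 genes, Atp5g1, Atp5g2 and Atp5g3, that encode the same mature protein behind different import signals. Atp5g1 ran from 25.2 ± 11.3 CPM in Retnlg-led neutrophil-like cells to 505 ± 31 in macrophage cluster 6, the widest range in complex V. Atp5g3 ran from 35.1 ± 12.98 to 405 ± 40, and Atp5g2 from 61.2 ± 13.1 to 680 ± 86, both from Retnlg-led neutrophil-like to proliferating alveolar macrophage-like cells. In Lef1-led T-like cells Atp5g2 stood at 426 ± 39 CPM, against 506 ± 50 in epithelial cells, whereas Atp5g3 stood at 117 ± 10 against 229 ± 32.

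Because most members moved together on the first scale, their start regions were searched for 3 motifs known from such genes. RefSeq's table (GRCm38.p6) held the 250 bases before the annotated start for 65 of the 81 nuclear members. The palindromic core bound by NRF1, a regulator of respiratory genes, whose 10 letters are the capitals in the sequences that follow, lay in 4 of 65 (6.15%) and in 0.781% of all 27025 promoters of that length. The ETS core CCGGAAGT lay, on either strand, in 3 of 65 (4.62%, all promoters 2.93%), and the YY1 core AAGATGGC in 0 of 65 (all promoters 1.59%). A match is a description of the sequence, not of binding. The 4 windows with the NRF1 core are given as 50 bases read 5′ to 3′ on the gene's strand, with the core in capitals. They lie at chr15:102671060-102671109 (minus strand), chr5:108434420-108434469 (minus), chr5:115349091-115349140 (minus) and chr17:56717682-56717731 (plus), in that order.
Atp5g2: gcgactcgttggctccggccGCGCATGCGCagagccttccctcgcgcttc
Atp5k: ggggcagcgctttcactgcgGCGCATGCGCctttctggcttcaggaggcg
Cox6a1: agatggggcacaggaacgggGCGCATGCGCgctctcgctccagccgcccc
Ndufa11: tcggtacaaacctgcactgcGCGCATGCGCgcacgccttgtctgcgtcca

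The balance between complexes shifted little. Complex I made up 24.03% to 35.9% of the nuclear part (median over classes 27.7%), complex III 8.36% to 11.3%, complex IV 23.98% to 32.9% and complex V 29.5% to 34.1% over the 20 classes. Epithelial cells had 32.5 ± 0.4% of the nuclear part in complex I, second only to plasma cell-like cells among the 20 classes, and the lowest complex V share (29.5%). Part of the complex I share was Ndufa4, which is counted there by name although its product is now placed in complex IV. Without it, complex I stood at 6557 ± 157 CPM in epithelial cells, still below the 7507 ± 203 of alveolar macrophage-like cells and above the 6225 ± 113 of C1q macrophage-like cells.

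Ndufa4 followed the other members least. Its r with the rest of the nuclear part was 0.248, the lowest of the 74. Epithelial cells held 754 and 884 CPM in Con and 678 and 704 in mA1 libraries, the highest class mean on the first scale (755 ± 92). Plasma cell-like cells (632 ± 224), NK-like cells (615 ± 73) and gamma-delta T-like cells (501 ± 43.8) followed, and the plasma cell-like mean rested on Con library 2, at 969 CPM against 512 to 537 in the other libraries. Immunoglobulin genes were in the denominator of that plasma cell-like mean, which was not recomputed without them. Alveolar macrophage-like cells, the class with nearly the highest nuclear sum, held 387 ± 35 CPM. Proliferating alveolar macrophage-like (346 ± 34) and monocyte-like cells (319 ± 33) lay close to that level. Several other myeloid classes held less, with 177 ± 30 in macrophage cluster 6, 171 ± 59 in Inhba-led alveolar macrophage-like cells, 118 ± 7.53 in C1q macrophage-like cells and 117 ± 25 in mature DC-like cells. In contrast to these, cDC1-like cells held 327 ± 22 CPM and cDC2-like cells 139 ± 11, without overlap. By Spearman correlation over the 20 classes, the members most like Ndufa4 were Ndufb11 (0.699), Ndufs3 (0.547) and Ndufs4 (0.517).

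In 6 myeloid classes Ndufa4 was low and its paralogue high, which was not so in every class. AA467197, the mouse counterpart of C15orf48 (also NMES1), encodes a small protein known to take the place of NDUFA4 in complex IV of activated myeloid cells; it is no member by symbol and was chosen after its values were seen. It was highest in Ccrl2-led neutrophil-like cells, at 639 and 1267 CPM in Con and 975 and 586 in mA1 libraries. Mature DC-like cells (788 ± 327), cDC2-like cells (785 ± 202), macrophage cluster 6 (762 ± 191), Inhba-led alveolar macrophage-like cells (719 ± 224) and C1q macrophage-like cells (618 ± 91) were also high. Each of these 6 classes had an Ndufa4 mean of at most 177 CPM, as the plot of both genes by class shows. AA467197 was low in epithelial cells (41.7 ± 25.4), monocyte-like cells (21.8 ± 6.2), cDC1-like cells (73.1 ± 35.8) and all lymphocyte classes (at most 26.1 ± 7.9, in CD4 T-like cells). Proliferating alveolar macrophage-like cells held both genes, with 346 CPM of Ndufa4 and 293 ± 70 of AA467197. Retnlg-led neutrophil-like cells had the lowest Ndufa4, at 54.5 ± 13.6 CPM, with only 147 ± 34 of AA467197, and Lef1-led T-like cells had 225 ± 25 and 4.99 ± 1.62. Over the 20 classes, which share libraries, Spearman's rho between the genes was -0.559. AA467197 was among the 10 genes that led macrophage cluster 6, and unlike the members it was not kept out of the clustering, so its level there is a description only.

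**Figure D4:**
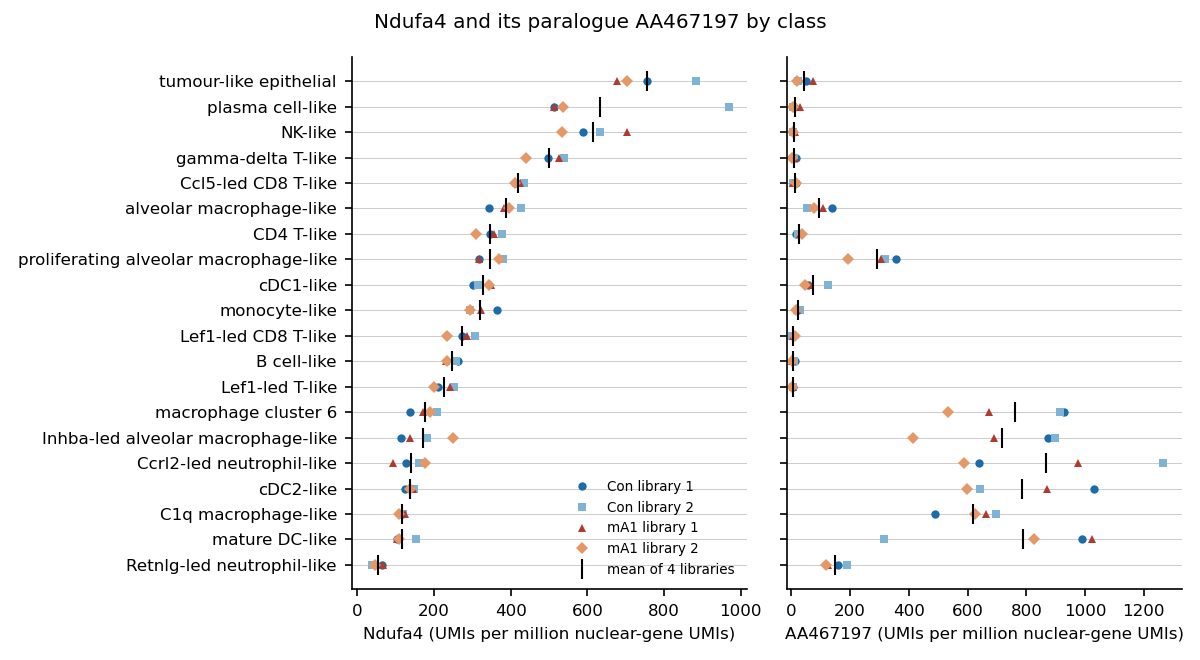
Level of Ndufa4 (left) and of its paralogue AA467197 (right) in 20 classes, in CPM of nuclear-gene UMIs, ordered by Ndufa4. Points are the 4 libraries and bars their mean; the 6 classes with AA467197 means of 618 or more have Ndufa4 means of 177 or less.

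The start regions of this pair, which have opposite levels in most myeloid classes, are shown as the 250 bases before each annotated start, read 5′ to 3′ on the gene's strand. Neither window held any of the 3 motif cores, so nothing is in capitals. Ndufa4 lies at chr6:11907451-11907700 (minus strand) and AA467197 at chr2:122637637-122637886 (plus strand).
Ndufa4: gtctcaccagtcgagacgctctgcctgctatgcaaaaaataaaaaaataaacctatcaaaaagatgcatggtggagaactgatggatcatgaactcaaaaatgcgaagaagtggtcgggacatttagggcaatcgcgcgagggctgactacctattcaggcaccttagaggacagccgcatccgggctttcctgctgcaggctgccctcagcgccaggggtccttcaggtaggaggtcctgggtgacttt
AA467197: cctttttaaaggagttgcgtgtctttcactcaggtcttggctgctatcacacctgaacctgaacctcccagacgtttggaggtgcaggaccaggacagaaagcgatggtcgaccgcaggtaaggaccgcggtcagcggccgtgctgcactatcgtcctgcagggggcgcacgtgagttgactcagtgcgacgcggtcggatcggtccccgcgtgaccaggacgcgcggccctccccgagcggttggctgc
G and C made up 51.6% of the Ndufa4 window and 62.8% of the AA467197 window, against 52% in all promoters of the table.

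Cox7a2l, which joins complexes III and IV into supercomplexes, was highest in the Lef1-led T cell classes, and Uqcrh, the acidic hinge protein of complex III, was high in most T cell classes and monocyte-like cells. Cox7a2l stood at 781 and 682 CPM in Con and 778 and 805 in mA1 libraries of Lef1-led T-like cells, its highest class. It fell short of that in CD4 T-like cells (1.55-fold lower) and gamma-delta T-like cells (1.98-fold lower), in 4 of 4 libraries, although the nuclear sum was higher there. Lef1-led CD8 T-like cells held 721 ± 39 CPM, whereas B cell-like cells (494 ± 43) lay at the epithelial level (496 ± 66) and below monocyte-like cells (588 ± 61). Its lowest class on the scale of all nuclear-gene UMIs, immunoglobulin genes included, was plasma cell-like cells, at 135 ± 11 CPM. Cox7a2l had r = 0.254 with the rest of the nuclear part, next to Ndufa4. Uqcrh had the highest mean over classes of the nuclear complex III members, and stood at 829 ± 49 CPM in CD4 T-like and 811 ± 79 in Lef1-led T-like cells, which overlapped monocyte-like cells (814 ± 51), against 298 ± 39 in Retnlg-led neutrophil-like cells.

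The other 19 of the 74 members did not have their lowest level in Retnlg-led neutrophil-like cells. Some members, whether of these 19 or of the 55, were highest outside the macrophages. All in this paragraph but Cox8a and Ndufa1 were chosen after their values were seen. Cox8a, the ubiquitous subunit 8 of complex IV, was highest in Ccrl2-led neutrophil-like cells (1226 and 1416 CPM in Con, 1489 and 1573 in mA1) and still stood at 863 ± 68 in Retnlg-led neutrophil-like cells, where 55 other members had their minimum. Its lowest class on the scale of all nuclear-gene UMIs, immunoglobulin genes included, was plasma cell-like cells (383 ± 54). Atp5md, a small membrane subunit of complex V, showed a similar order, with 580 ± 69 CPM in Ccrl2-led neutrophil-like, 380 ± 41 in Retnlg-led neutrophil-like and 147 ± 32 in plasma cell-like cells. Ndufa1, an X-linked membrane subunit of complex I, was instead highest in plasma cell-like cells (332 ± 40 CPM) and lowest in Retnlg-led neutrophil-like cells (96.2 ± 20.1). Ndufa7, an accessory complex I subunit, was highest in epithelial cells (505 ± 42 CPM against 304 ± 19 in alveolar macrophage-like cells). Ndufv3, a subunit of the NADH-oxidising module, was highest in gamma-delta T-like cells (325 ± 20) and lowest in Retnlg-led neutrophil-like cells (36.0 ± 7.3).

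Tissue-restricted isoforms were uneven between classes, with Cox6b2 spread over the macrophage classes. Cox6b2, known from testis, ran from 0.677 ± 1.35 CPM in Lef1-led CD8 T-like cells (4 UMIs) to 71.3 ± 16.1 in alveolar macrophage-like cells, the widest range of any member that reached 50 CPM in some class. Of Cox6b2, proliferating alveolar macrophage-like cells held a mean of 69.7 CPM, macrophage cluster 6 59.5 ± 13.3 and Inhba-led alveolar macrophage-like cells 51.9. Levels were 26.02 ± 7.1 CPM in cDC2-like, 21.5 ± 2.6 in C1q macrophage-like, 17.8 in monocyte-like and 5.07 ± 4.12 in epithelial cells. The ubiquitous partner Cox6b1 stood at 788 ± 37 CPM in alveolar macrophage-like and 560 ± 54 in epithelial cells, so that both isoforms were higher in alveolar macrophage-like cells, Cox6b2 by more. Cox6b1 peaked in macrophage cluster 6 (839 ± 20 CPM) and Cox6a1 in proliferating alveolar macrophage-like cells (396 ± 15). Cox7a2 peaked there too (622 ± 14 CPM), while Cox7a1, the muscle isoform, reached at most 15.3 ± 2.0 CPM, in macrophage cluster 6. Cox7b, the ubiquitous subunit 7b, was highest in cDC1-like cells (565 ± 113 CPM).

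Cox6a2, the heart and muscle isoform of subunit 6a and a known marker of plasmacytoid dendritic cells, reached 157 CPM in pDC-like cells when libraries were pooled (84 UMIs in 71 cells, of which 9 held any). Epithelial cells held 835 of the 1228 Cox6a2 UMIs in named classes, and AT2-like cells another 160. In epithelial cells its level was 44.8 and 14.6 CPM in Con and 0.755 and 4.98 in mA1 libraries, so that the groups did not overlap. These UMIs were concentrated in sub-clusters that were unequal between libraries. Sub-cluster 7.3 held 458 of them in 161 cells and sub-cluster 7.1 held 214 in 202 cells, against 11 in the 227 cells of sub-cluster 7.0. Con library 1 had 32.6% of its epithelial cells in 7.1 and 27.3% in 7.3, and Con library 2 had 6.10% and 3.66% there but 51.8% in 7.2, whereas 50.3% of mA1 library 2 and 37.7% of mA1 library 1 lay in 7.0. Within 7.2 the level was 3.68 and 18.5 CPM in Con libraries, with 0 UMIs in the 24 and 20 mA1 cells. Within 7.3 it was 104 and 98.2 CPM in Con libraries and 0 and 35.3 in mA1 libraries, where 6, 3 and 7 cells stand behind all but the first value. The groups did not overlap in these 2 sub-clusters but did in 7.1 (43.3 and 2.85 CPM in Con, 0 and 28.96 in mA1 libraries), and no test was made on so few cells. They also overlapped in 7.0 (0.642 and 0.729 CPM in Con, 0 and 2.76 in mA1) and 7.4 (12.1 and 1.70 in Con, 3.63 and 1.02 in mA1). Only 7.0, 7.2 and 7.4 had at least 20 cells in every library. In 7.6 the groups did not overlap (12.6 and 3.94 CPM in Con, 0 in both mA1 libraries), and in 7.7 only Con library 1 held UMIs. Cox6a2 was kept out of the clustering. Over all libraries, of which Con library 1 gave 531 of 992 epithelial cells, 16.3% of epithelial cells held a Cox6a2 UMI, against 0.520% of alveolar macrophage-like cells, which were shallower (median 12204.5 UMIs).

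Ndufa4l2, the hypoxia-responsive relative of Ndufa4, was almost confined to fibroblast-like cells, which held 337 of its 381 UMIs in named classes (222 CPM in 110 pooled cells). Cox4i2, the alternative subunit 4 known from lung and vessel walls, also peaked there at 87.8 CPM (133 UMIs), followed by AT2-like cells at 19.5 CPM (66 UMIs). Fibroblast-like, AT2-like and pDC-like cells had fewer than 20 cells in some library and enter no test.

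The mitochondrially encoded part varied more between classes than the nuclear part, 9.28-fold in all, with Retnlg-led neutrophil-like cells at the low end. Leaving both neutrophil classes aside, it ran from 2.69% in plasma cell-like to 6.88% in alveolar macrophage-like cells. The nuclear part then ran from 13144 to 28728 CPM, so the contrast between the parts was much smaller. The mitochondrial part made up 6.34% and 7.68% of gene UMIs in Con and 6.99% and 6.53% in mA1 libraries of alveolar macrophage-like cells, and 6.63 ± 0.29% in macrophage cluster 6. B cell-like cells (5.92 ± 0.42%) overlapped proliferating alveolar macrophage-like cells (5.68 ± 0.36%), and Lef1-led CD8 T-like cells (5.25 ± 0.33%) came next, so that resting lymphocytes stood beside macrophages in this part. Epithelial cells held 4.14% and 3.10% in Con and 4.49% and 3.82% in mA1 libraries, a wide range that overlapped mature DC-like (4.00 ± 0.11%) and monocyte-like cells (3.82 ± 0.34%). At the low end were NK-like (3.20 ± 0.32%), plasma cell-like (2.69 ± 0.22%), Ccrl2-led neutrophil-like (1.94 ± 0.27%) and Retnlg-led neutrophil-like cells (0.742 ± 0.189%), and the last 3 did not overlap. Ribosomal protein and immunoglobulin genes stayed in the denominator of this percentage, which was not recomputed without them. Immunoglobulin genes took 54.0% of nuclear-gene UMIs in plasma cell-like cells, and ribosomal protein genes 48.4% in Lef1-led CD8 T-like cells. The order of classes is given for this denominator only. Over 20 classes the nuclear and mitochondrial levels had r = 0.558 and Spearman's rho 0.426, and over the 18 classes without neutrophils 0.370 and 0.298.

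The ratio of mitochondrial to nuclear UMIs, which no denominator touches, was highest in B cell-like cells at a log2 value of 2.09 ± 0.14, then in Lef1-led CD8 T-like (1.87 ± 0.10) and Lef1-led T-like cells (1.86 ± 0.05), which all lay above every other class. Alveolar macrophage-like cells had 1.40 ± 0.16 and epithelial cells 0.83 ± 0.24. NK-like cells had 0.53 ± 0.11, below Ccl5-led CD8 T-like cells by 0.80 ± 0.07 in 4 of 4 libraries. Ccrl2-led neutrophil-like cells had 0.08 ± 0.21 and Retnlg-led neutrophil-like cells -0.38 ± 0.38, the one class with fewer mitochondrial than nuclear member UMIs in every library. That sign depended on the cells kept: the mean was 0.29 with no limit on mitochondrial UMIs and 0.07 in cells of at least 2000 UMIs. Plasma cell-like cells lay below B cell-like cells by 1.01 ± 0.05, and CD4 T-like below Lef1-led T-like cells by 0.69 ± 0.06, in 4 of 4 libraries each.

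The limit of 15% mitochondrial UMIs per cell bore on this part unevenly. It removed 2296 of 5758 barcodes placed with alveolar macrophage-like cells (39.9%, and 24.98% to 54.3% by library), but 2.65% of epithelial and 1.04% of Retnlg-led neutrophil-like barcodes. With no limit, alveolar macrophage-like cells held 10.1 ± 2.31%, and their excess over Lef1-led T-like cells grew from 1.37-fold to 1.79-fold. Their ratio then rose to 2.05 and their rank from 4 to 2. In Retnlg-led neutrophil-like cells the few barcodes above the limit also counted, since their mitochondrial part went from 0.742% to 1.18 ± 0.30% with no limit. The levels of this part in both classes therefore depend on the limit.

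Within the mitochondrial part some members kept nearly the same share in all classes and others did not. As 3′ UMIs, not divided by length, mt-Co3 made up 20.5% of it on average, mt-Atp6 19.6%, mt-Co1 18.8%, mt-Co2 14.4% and mt-Cytb 7.62%. The complex I genes mt-Nd4 (6.21%), mt-Nd1 (4.30%), mt-Nd2 (4.23%), mt-Nd3 (1.74%), mt-Nd5 (1.29%) and mt-Nd4l (0.999%) were less represented, as were mt-Atp8 (0.310%) and mt-Nd6 (0.0516%), the one member encoded on the light strand. The share of mt-Co1 rose from 15.4% in Ccrl2-led neutrophil-like to 25.2% in Retnlg-led neutrophil-like cells. mt-Nd1 had its highest share in epithelial cells (5.72 ± 0.54%, against 2.88% in Retnlg-led neutrophil-like cells), and mt-Cytb in plasma cell-like cells (9.30%, against 5.87% in monocyte-like cells). mt-Co3 and mt-Co2 varied 1.21-fold over classes, and mt-Nd6, mt-Atp8 and mt-Nd3 over 2-fold, with these 3 among the 5 scarcest.

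Genes around the chain followed it in part. The sum of Sdha, Sdhb, Sdhc and Sdhd, which form complex II, ran from 149 ± 12 CPM in Retnlg-led neutrophil-like cells to 554 ± 47 in proliferating alveolar macrophage-like cells, and stood at 349 ± 47 in epithelial cells. Sdhc (rho = 0.961 with the nuclear part over 20 classes) and Sdhb (0.941) followed the nuclear part more closely than Sdha (0.713). Cycs, the electron carrier cytochrome c, was highest in cDC1-like cells (295 ± 39 CPM) and epithelial cells (276 ± 46), against 191 ± 24 in alveolar macrophage-like cells. Ucp2, an inner membrane carrier of the uncoupling family, was highest in macrophage cluster 6 (1027 ± 45 CPM) and lowest in epithelial cells (75.9 ± 12.6). Tfam, which packages and transcribes mitochondrial DNA, was highest in B cell-like cells (62.2 ± 8.8 CPM), the class with the highest ratio of mitochondrial to nuclear UMIs, and 25.3 ± 4.5 in epithelial cells. Lrpprc, which stabilises mitochondrial messenger RNAs, was highest in alveolar macrophage-like cells (28.8 ± 4.3 CPM). Of the coactivators of respiratory genes, Ppargc1a reached 6.04 ± 3.56 CPM in epithelial cells and 0.0192 in alveolar macrophage-like cells, and Ppargc1b 24.3 ± 2.0 in Inhba-led alveolar macrophage-like cells and 1.24 ± 0.65 in epithelial cells. The 78 mitochondrial ribosomal protein genes together were highest in proliferating alveolar macrophage-like (6623 ± 111 CPM) and epithelial cells (6103 ± 169), above the 5717 ± 132 of alveolar macrophage-like cells.

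No respiratory chain member differed between mA1 and Con past the threshold in any of the 20 classes. With edgeR's quasi-likelihood test on library sums and Benjamini-Hochberg adjustment over all genes of a class, 0 of 81 to 90 tested members were called at an adjusted p of 0.05, and the smallest adjusted p was 0.496. All genes together were called at a rate of 0.0262% (40 of 152593 tests). By class that rate was 0.128% in Lef1-led CD8 T-like, 0.101% in Lef1-led T-like, 0.0822% in epithelial, 0.075% in plasma cell-like, 0.052% in NK-like, 0.0418% in Ccl5-led CD8 T-like, 0.0239% in B cell-like, 0.0211% in monocyte-like and 0.0207% in mature DC-like cells, and 0 in the other 11 classes. At an unadjusted p under 0.05 there were 19 of 1726 member tests (1.10%), against 4.27% of all tests. DESeq2 called 0 members as well, with 7 at an unadjusted p under 0.05. Groups of 2 libraries each are a small design, in which the exact permutation test of a single level cannot go below p = 0.333.

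Counts of members whose groups did not overlap, here and below, used shares of all gene UMIs, mitochondrial ones included, and not the CPM of nuclear-gene UMIs. In tumour-like epithelial cells, the class the guides were designed for, 26 of 77 nuclear members had both mA1 values above both Con values (33.8%, all genes 20.8%) and 10 were lower (12.99%, all genes 18.6%). The median log2 change of the nuclear members was 0.02, beside -0.01 over all genes tested. The libraries differed in their shares of epithelial sub-clusters, as given above for Cox6a2. The nuclear part differed between sub-clusters too, at 19791 CPM in 7.1 and 24118 in 7.4 of Con library 1. The part of this make-up in the counts was not tested. The member with the smallest p was Cox7c, a small subunit of complex IV, at 843 and 1021 CPM in Con and 696 and 641 in mA1 libraries. Its groups did not overlap, and its log2 change of -0.52 ± 0.18 (SE) had an adjusted p of 0.496 (edgeR). Uqcrb stood at 411 and 572 CPM in Con and 378 and 356 in mA1 libraries (log2 change -0.46 ± 0.21, edgeR adjusted p = 0.610). Ndufa11, a complex I membrane subunit, stood at 182 and 166 CPM in Con and 222 and 234 in mA1 libraries (log2 change 0.36 ± 0.17, edgeR adjusted p = 0.625). Cox6a2, described above, had a log2 change of -3.30 ± 1.08 (edgeR adjusted p = 0.585). mt-Nd2, a core subunit of complex I, took 0.147% and 0.0945% of all gene UMIs in Con and 0.191% and 0.159% in mA1 libraries (log2 change 0.51 ± 0.22, edgeR adjusted p = 0.574). All 5 of these separated the groups, yet none passed the adjusted threshold. Hbb-bs, a haemoglobin gene abundant in red cells, moved with the groups in the same cells, at 29.2 and 21.1 CPM in Con and 2.08 and 1.61 in mA1 libraries (log2 change -3.81 ± 0.30, edgeR adjusted p = 0.00330). Over the 20 classes, 5 of 67 tests of haemoglobin and plasma cell genes were called lower in mA1 (the others were Igkc in 4 classes) and 28 had an unadjusted p under 0.05 (41.8%), with a median log2 change of -1.01. The part of such RNA in these results was not tested.

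In alveolar macrophage-like cells 24 of 76 nuclear members were higher in both mA1 libraries (31.6%, all genes 12.5%) and 0 were lower (all genes 19%). The changes were small: 69 of 76 were positive with a median log2 change of 0.10, beside -0.01 over all genes, and 0 members had an unadjusted p under 0.05 with edgeR. Those with the smallest p included Ndufa11, Cox6b2, Ndufa9 and Atp5j, each with an adjusted p of 0.999 (edgeR). Ndufa11 stood at 199 and 198 CPM in Con and 221 and 217 in mA1 libraries, a log2 change of 0.18 ± 0.11. Cox6b2 stood at 74.7 and 47.7 CPM in Con and 80.1 and 82.8 in mA1 libraries, a log2 change of 0.42 ± 0.24. Without Con library 1, whose level lay close to mA1, Cox6b2 was called (log2 change 0.87 ± 0.13, edgeR adjusted p = 0.00894), in a fit with a single Con library, which is assumed to vary as the mA1 pair does. Summed over members, the nuclear part of this class stood at 27974 and 26855 CPM in Con and 29408 and 27649 in mA1 libraries, which overlapped.

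Gamma-delta T-like cells went the other way. In this class 9 of 13 mitochondrial members were lower in both mA1 libraries (69.2%, all genes 18.1%), and 19 of 73 nuclear members (26.03%). The mitochondrial part stood at 5.27% and 5.30% in Con and 4.87% and 4.42% in mA1 libraries, a log2 difference of -0.19 and the lowest of the 20 classes. Taking the 8 tumours told apart by hashtag as samples, the difference was -0.18 (exact two-sided permutation test, p = 0.0571, adjusted 0.557 over 13 classes), where 4 against 4 tumours could reach 0.0286. This test treats tumours that share a library as independent, which they may not be.

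Over the 20 classes the share of nuclear members higher in both mA1 libraries ran from 2.74% in plasma cell-like cells (all genes 6.76%) to 33.8% in epithelial cells. The share lower in both ran from 0 in alveolar macrophage-like cells to 26.03% in gamma-delta T-like cells. Among the other classes the shares higher were 28.8% in cDC1-like cells (21 of 73, all genes 13.4%), 27.4% in monocyte-like cells (20 of 73, all genes 16.4%) and 26.4% in Ccrl2-led neutrophil-like cells (19 of 72, all genes 20.2%). The share lower was 24.7% in Lef1-led CD8 T-like cells (18 of 73), near the 25.2% of all genes. In the Ccrl2-led class 7 of 72 were lower (9.72%, all genes 10.2%), in B cell-like cells 9 of 73 (12.3%, all genes 20.7%) and in plasma cell-like cells 1 of 73 (1.37%, all genes 10.4%). Of the mitochondrial members, 5 of 13 were lower in macrophage cluster 6 (38.5%, all genes 1589 of 10424) and 4 of 13 in C1q macrophage-like cells (30.8%, all genes 1429 of 9403), while 4 of 12 were higher in mature DC-like cells (33.3%, all genes 13.1%). Members are measured in the same libraries and are not independent.

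Over all 20 classes the nuclear part was higher in mA1 in 13 and lower in 7, with a median log2 difference of 0.01 and a range from -0.07 in gamma-delta T-like to 0.11 in Ccrl2-led neutrophil-like cells. The mitochondrial part was lower in mA1 in 18 of 20 classes (median -0.06), higher only in mature DC-like (0.05) and epithelial cells (0.21). The ratio was lower in 17 of 20 classes (median -0.08). These signs share libraries and are not independent: mA1 library 2 had the lowest mitochondrial part in 14 of 20 classes, and without it the median difference was 0.04. The nuclear groups did not overlap in 4 classes, 3 higher (monocyte-like, Ccrl2-led neutrophil-like and cDC1-like cells) and 1 lower (gamma-delta T-like cells). By tumours, in the 13 classes with enough cells, 0 differences had p under 0.05 in the exact test for the nuclear part (smallest p 0.0857), the mitochondrial part or the ratio (smallest p 0.0571 each). Tumours that share a library were again treated as independent.

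**Figure D5:**
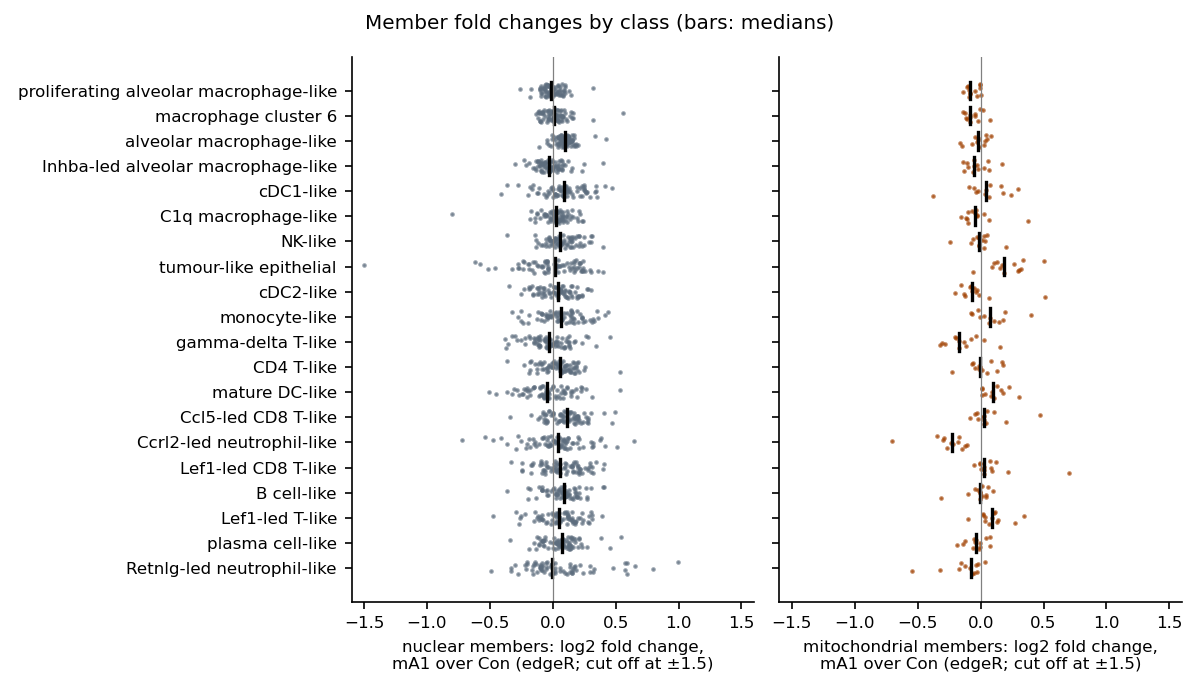
Log2 fold change of each tested member, mA1 over Con, by class, from edgeR on library sums, for nuclear (left) and mitochondrial members (right), with values clipped at ±1.5 (Cox6a2 in epithelial cells lies at -3.30). Bars are medians, which run from -0.05 to 0.11 for nuclear and from -0.23 to 0.18 for mitochondrial members; 0 points passed an adjusted p of 0.05.

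The difference between epithelial and alveolar macrophage-like cells in their group effect was tested itself. Of 90 members 0 were called by the class by group term in edgeR (0 at an unadjusted p under 0.05), where all genes were called at 0.0223% (3 of 13442). The 13 mitochondrial members were all on the positive side, higher in epithelial cells relative to macrophages in mA1, with a median of 0.18. The 77 nuclear members had a median of -0.13, with 52 negative. Without Con library 1, 3 members were called (Uqcrb lower, mt-Nd2 and mt-Nd4l higher), and without Con library 2, 2 (Cox6b2 and Cox6a2 lower), in fits where the lone Con library of each class is assumed to vary as the mA1 libraries do.

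The X-linked members Ndufa1, Ndufb11 and Cox7b were examined because of the Xist difference. Con library 2 exceeded the mean of the other libraries in Ndufa1 by a median of 0.15 on the log2 scale over 20 classes, and was the highest library in 7 and the lowest in 1. For Ndufb11 the median was -0.03, and for Cox7b -0.02, beside -0.01 for all nuclear members.

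Genes around the chain were tested in the same fits. Of 195 genes in 12 lists (complex II, carriers, assembly factors of complexes I, III, IV and V, mitochondrial transcription, regulators, uncoupling and defence, citric acid cycle, outer membrane and mitochondrial ribosome), 0 were called in 3232 tests, with 67 (2.07%) at an unadjusted p under 0.05. Median log2 changes of the lists ran from -0.09 for mitochondrial transcription to 0.11 for complex III assembly.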

How the data were processed

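Droplet libraries of the 10x 3′ kind were counted by the authors with Cell Ranger 6.0.1, per the submitters' processing notes, and deposited as UMI counts of 32286 genes per barcode.

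Barcodes with at least 500 UMIs, 250 genes and at most 15% mitochondrial UMIs were kept, and those with both hashtags or called by Scrublet were dropped. Scrublet called 0 cells in Con library 2, so only barcodes with both hashtags were dropped as doublets there. Why it called none was not examined, and other doublets may remain in that library. Cells were clustered on 2000 variable genes (scanpy 1.11.5, 30 components, 15 neighbours, Leiden resolution 1.0), leaving out the members, and named from marker sets. Counts were summed per class and library and tested with edgeR 4.0.16 (R 4.3.3; quasi-likelihood test, filtered for low counts, Benjamini-Hochberg over all genes of a class), with DESeq2 1.42.0 as an alternative. Exact permutation tests of single levels were two-sided. P-values measure the spread between these libraries, which may be technical.

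Members and lists were chosen with earlier results of these data known. Genes were named by rule: the mitochondrial members, isoform pairs, called members, the 5 smallest p in epithelial and alveolar macrophage-like cells, the highest and the widest-ranging member of each complex, X-linked members and genes around the chain. 1 member picked by this rule is not reported here.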

Additional observations from a re-analysis of the deposited data

Results flagged for a closer look

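Among 90 groups of 4 tumours, 5 held a tumour far from the other 3 by Dixon's criterion at 95%, and chance gives about 1 in 20 groups. In Ccl5-led CD8 T-like cells the nuclear part of mA1 library 2, hashtag 1, was 17691 CPM against 19738 to 20150.2 in the other mA1 tumours, from 62 cells. In the same class Con library 1, hashtag 2, had a mitochondrial part of 5.15% against 4.53% to 4.63%, and a log2 ratio of 1.505 against 1.30 to 1.33, from 144 cells. In proliferating alveolar macrophage-like cells mA1 library 2, hashtag 2, had a mitochondrial part of 5.003% against 5.66% to 5.78%, from 101 cells. In B cell-like cells the same tumour had a log2 ratio of 1.80 against 2.13 to 2.20, from 184 cells.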

How the results depend on the processing

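Without a filter on low counts 2 members were called. Ndufa4l2 was called in Inhba-led alveolar macrophage-like cells (log2 change 4.51, edgeR adjusted p = 0.0109) and Cox6b2 in macrophage cluster 6 (0.56, edgeR adjusted p = 0.0346). Ndufa4l2 lay near the floor in that Inhba-led class, at 1.17 ± 2.24 CPM, an SD above the mean. It had 43 UMIs over the 20 classes together. Leaving out 1 library at a time gave 0 to 3 calls, in fits where the lone library of a group is assumed to vary as the other group does. The 3 came without Con library 1: Cox6b2 in alveolar macrophage-like cells (0.87) and macrophage cluster 6 (0.67), and Cox7a2l in macrophage cluster 6 (0.61). The term for epithelial against alveolar macrophage-like cells likewise gave 0 to 3 calls. Its 3 without Con library 1 were Uqcrb (-0.93), mt-Nd2 (0.84) and mt-Nd4l (0.90), and its 2 without Con library 2 were Cox6b2 (-1.47) and Cox6a2 (-4.68). Malat1 in epithelial cells ranged from -0.36 to 0.42, with -0.18 without Con library 2 and -0.36 without mA1 library 2. The cause of these changes was not tested.

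The excess of alveolar macrophage-like over Lef1-led T-like cells in the nuclear part was 1.93-fold. It became 1.85-fold with no mitochondrial limit, and 1.27-fold without ribosomal protein and immunoglobulin genes in the denominator. In the mitochondrial part it went from 1.37-fold to 1.52-fold at a limit of 25% and 1.79-fold with none. These settings were chosen after seeing the data. With the replicate number as a block 0 members were called. The medians over classes were 0.01, -0.06 and -0.08 for the nuclear part, the mitochondrial part and the ratio. With balanced groups the block cannot change these mean differences, so the equal medians are no check. Over genes, the log2 difference between Con libraries 1 and 2 was set against that between mA1 libraries 1 and 2. These differences correlated at -0.11 to 0.17 by class, so the numbers were not taken as pairs. Of 759 values of the parts by class 730 moved by less than the spread between libraries. The 759 include those with the block, which could not move. Of the values of named genes, 98 of 99 kept their side of the threshold and direction.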
